A study of Homo sapiens with 6 samples.

Results

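The transcripts described here are those of LCN2, a secreted lipocalin that binds iron through siderophores, and of 9 genes by which cells take up, store, release and sense iron. The rule takes them by symbol and sets no threshold on a measured value, but the set was proposed with earlier results of these data known. They are 10 of the 17789 symbols in the deposited tables. All 10 were listed in every library and all 10 reached the mean of 0.5 FPKM needed to be tested. The libraries are RNA-seq of A549-labelled cells, which the labels describe as non-small-cell lung cancer. In 3 libraries FOXD3, a forkhead transcription factor, had been silenced by transfecting pooled siRNAs in a lipid reagent, and 3 libraries are labelled wild type and control. Knockdown was examined 72 h after transfection, and what was given to the control wells is not stated. All were 1 cell line, and no label tells whether replicates grew as separate cultures. Each p-value therefore reflects the scatter among these libraries alone, which may be technical.

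Iron enters most cells as transferrin bound to the transferrin receptor (TFRC), is reduced in the endosome by STEAP3, and is either used for heme and iron-sulfur clusters or stored in ferritin, a shell built of heavy (FTH1) and light (FTL) chains. NCOA4 carries ferritin to the lysosome when iron is needed. In iron shortage the iron regulatory proteins, encoded by ACO1 and IREB2, bind a hairpin called the iron-responsive element: at the front of ferritin mRNA this blocks translation, and behind the coding part of TFRC mRNA it protects the message from decay. LCN2 lies outside this circuit. It is an acute-phase protein of neutrophils and epithelia, induced through NF-kB and its cofactor IkB-zeta, and it withholds iron from bacteria.

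The hairpins are shown because they divide the storage transcripts from the uptake transcripts. GENCODE 29 transcripts (GRCh38) were searched on the sense strand for an unpaired C, 5 stem bases, the loop CAGTGN and 5 further stem bases, at least 4 of which had to pair. Hairpins of any other form were not searched for, so the matches need not be every element a transcript holds. The search found 1 match in the 5′ UTR of FTH1, 1 in the 5′ UTR of FTL and 4 in the 3′ UTR of TFRC. It also found 1 in the 3′ UTR of SLC11A2, an iron transporter known to carry such an element. The SLC11A2 match had 4 paired stem bases, against 5 in each match of FTH1, FTL and TFRC. Capitals mark the 6 loop bases, read 5′ to 3′.
FTH1: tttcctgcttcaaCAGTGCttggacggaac
FTL: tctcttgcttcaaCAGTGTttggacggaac
TFRC element 1: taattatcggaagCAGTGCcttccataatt
TFRC element 2: acattatcgggagCAGTGTcttccataatg
TFRC element 3: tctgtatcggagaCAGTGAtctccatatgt
TFRC element 4: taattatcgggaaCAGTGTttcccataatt
SLC11A2: tagccatcagagcCAGTGTgtttctatggt
The FTH1 element lies at chr11:61967574-61967603 on the minus strand and the FTL element at chr19:48965334-48965363 on the plus strand. The first TFRC element lies at chr3:196050979-196051008 and the fourth at chr3:196050463-196050492, both on the minus strand. Of 19669 protein-coding genes, 0.768% held a match in the first 100 bases of a transcript, and 4 genes, TFRC included, held at least as many matches as TFRC in 1 transcript. Single matches with 4 paired bases also stood in the 3′ UTRs of IREB2, ACO1 and HFE, and 11.2% of genes held at least 1 match anywhere, so these letters alone mark no site.

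Each library came as FPKM, fragments scaled to transcript length and mapped total, without read counts. From the steps in FPKM that 1 fragment makes in single-exon genes, depth was roughly 6440000 to 7910000 fragments per library. FOXD3 itself was not listed in knockdown libraries 1 and 3 and stood at 0.0749 FPKM in knockdown library 2, against 0.152, 0.291 and 0.134 FPKM in the control libraries. The groups did not overlap (exact permutation, two-sided, p = 0.1, which is the lower limit for 3 against 3 libraries). FOXD3 was under the filter of 0.5 FPKM and barely detected in control libraries too. These values therefore rest on very few fragments, and the extent of the knockdown cannot be read from them. Libraries of a group correlated at r = 0.9842 to 0.9894 across genes, which are not independent replicates. The symbols above 0 numbered 15651 to 15754 in knockdown and 16229 to 16288 in control libraries. Small nucleolar RNAs took 1.92%, 4.83% and 1.82% of the FPKM total in knockdown libraries 1, 2 and 3 and 0.975% to 1.53% in control libraries, and their part in the results was not tested. LCN2, FTH1, TFRC, ACO1, NCOA4 and HFE kept their direction and their call without knockdown replicate 2. EPCAM, KRT7, KRT8 and KRT18, markers of epithelium, were abundant (114 to 3203 FPKM as group means), while the alveolar surfactant genes SFTPA1, SFTPB and SFTPC were at most 0.0726 FPKM in a group mean. CDKN2A, which A549 is known to lack by deletion, stood at 128 ± 1.55 FPKM in knockdown and 154 ± 0.814 FPKM in control libraries (SD, n = 3 each), and MTAP beside it at 12.2 ± 0.11 and 10.5 ± 1.27 FPKM in knockdown and control libraries. These values go against the label, so the line is named here only as labelled.

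Of the 10 members, 3 rose and 5 fell in the knockdown libraries (limma, Benjamini-Hochberg adjusted p under 0.05), with a median log2 change of -0.26. Of all 13340 genes tested, 25.6% rose and 37.9% fell, with a median log2 change of -0.087. In a comparison where 63.5% of genes passed, the number of members called is near the background, and the sizes carry the description. The groups of 8 members did not overlap, against 69.1% of all genes tested. After quantile normalization the calls over all genes split into 4304 higher and 3909 lower, against 3417 higher and 5050 lower for the values as deposited. LCN2 fell by 3.06 and TFRC rose by 1.19 in log2(FPKM + 1), a scale that shrinks changes of weakly expressed genes. The other 6 called members changed by 0.61 or less. Log2 changes below are knockdown minus control on that scale. Counts of genes that rose or fell in the wider lists below stand beside the same shares of all genes tested, 25.6% and 37.9%.

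**Figure D1:**
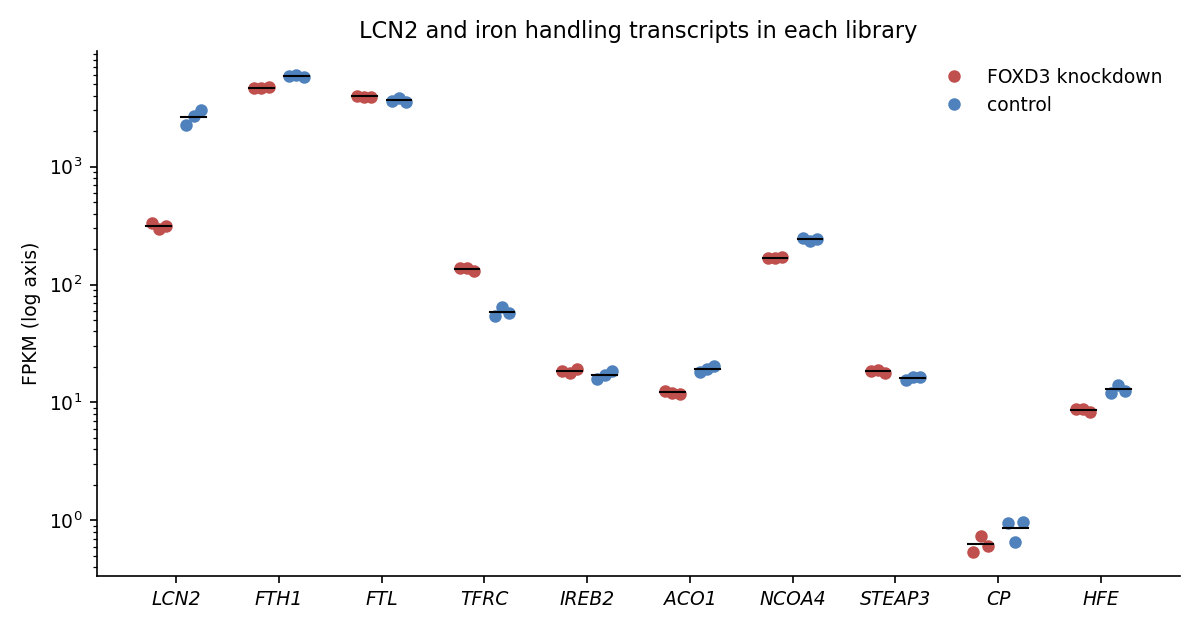
FPKM of each member (log axis) in the 3 FOXD3 knockdown libraries (red) and the 3 control libraries (blue); black lines are group means. LCN2 sits at 295 to 331 FPKM in knockdown and 2248 to 3005 FPKM in control libraries, and TFRC at 130 to 139 FPKM in knockdown and 54.5 to 64.2 FPKM in control libraries.

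**Figure D2:**
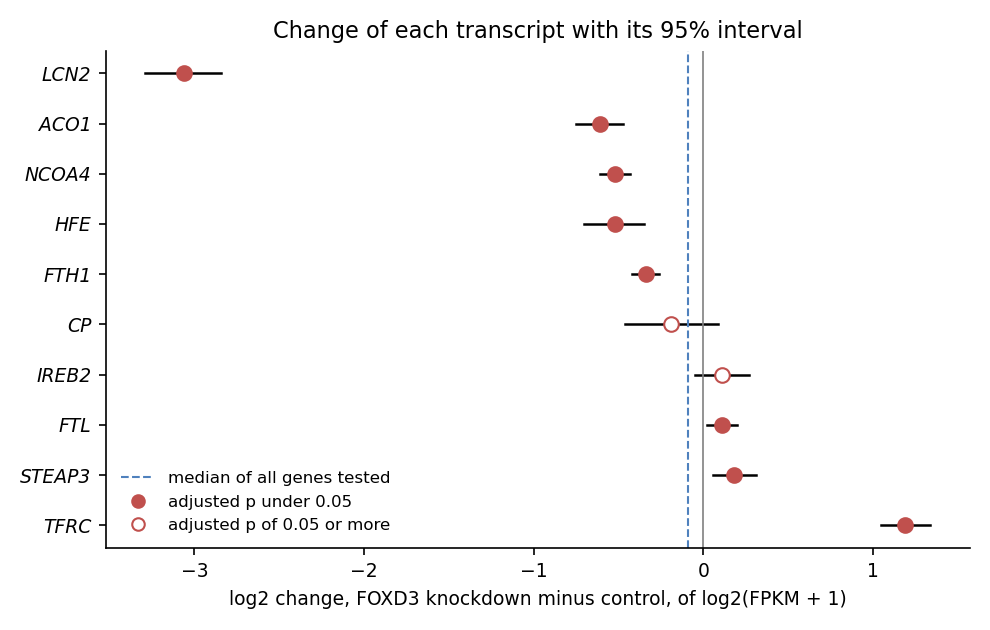
Log2 change (knockdown minus control, of log2(FPKM + 1)) of each member with limma's 95% interval, sorted from the largest fall to the largest rise. Filled points passed the adjusted threshold, open points (CP, IREB2) did not, and the dashed line is the median of all genes tested, -0.087.

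LCN2 (Entrez 3934) lies on chromosome 9 at 130911732 to 130915734 (hg19). Its level was 331, 295 and 314 FPKM in knockdown libraries 1, 2 and 3, against 2248, 2681 and 3005 FPKM in control libraries 1, 2 and 3. The highest knockdown library was far below the lowest control library. The mean was 8.44-fold lower in knockdown libraries, a log2 change of -3.06 (95% interval -3.29 to -2.84; limma, adjusted p = 4.95e-07). Only 18 of the 13340 genes tested fell further. LCN2 was 256th to 288th among all symbols by FPKM in knockdown libraries and 24th to 40th in control libraries. It held 0.048% to 0.0553% of the FPKM total in knockdown libraries and 0.364% to 0.491% in control libraries. In bulk libraries fewer cells of a type and less RNA per cell cannot be told apart.

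LCN2 was the one lipocalin at 5 FPKM or more. Of 19 lipocalin family genes looked for, 14 were listed in at least 1 library and 4 were tested. APOD, a lipid-binding lipocalin, rose to 1.10 ± 0.296 FPKM in knockdown libraries, against 0.472 ± 0.142 FPKM in control libraries (SD, n = 3 each; log2 change 0.51; limma, adjusted p = 0.0127). With a pseudocount of 0.1 the APOD change was 1.07 and after quantile normalization 0.81. APOM did not pass, and RBP4 passed only under some alternatives (limma, adjusted p = 0.438, in a range of 0.0455 to 0.817). Of the proteins LCN2 works with, MMP9, which it binds and protects, averaged 0.451 FPKM in knockdown and 0.400 FPKM in control libraries. The receptor SLC22A17 averaged 0.0587 and 0.0947 FPKM in knockdown and control libraries, and the receptor LRP2 was listed in no library. BDH2, an enzyme described as making a mammalian siderophore, fell to 2.16 ± 0.530 FPKM in knockdown libraries, against 5.09 ± 1.07 FPKM in control libraries (SD, n = 3 each; limma, adjusted p = 0.00104).

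Among secreted proteins that withhold metals, 5 of 10 were tested, 3 fell and none rose (limma, adjusted p under 0.05); CP did not pass, and S100A12 did so only under some alternatives (adjusted p = 0.0742, in a range of 0.0285 to 0.206). The calprotectin chains, which bind zinc and manganese, also fell. S100A8 averaged 55.1 ± 2.81 FPKM in knockdown and 724 ± 132 FPKM in control libraries (SD, n = 3 each; log2 change -3.67; limma, adjusted p = 5.15e-07). S100A9 averaged 360 ± 28.5 and 1885 ± 249 FPKM in knockdown and control libraries (log2 change -2.38; limma, adjusted p = 1.07e-06). S100A7 was not listed in any knockdown library and averaged 17 ± 4.18 FPKM in control libraries. Lactoferrin (LTF) and haptoglobin (HP) were listed in no library, and hepcidin (HAMP), transferrin (TF) and hemopexin (HPX) were at most 0.148 FPKM in either group mean.

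Of 10 transcription regulators known to act on LCN2, 8 fell, RARA did not pass and CEBPE was not listed, with a median log2 change of -0.58. NFKBIZ, which encodes IkB-zeta, fell the furthest. It stood at 4.94, 6.91 and 6.25 FPKM in knockdown libraries and 18.7, 19.5 and 23.6 FPKM in control libraries (log2 change -1.62; limma, adjusted p = 1.53e-05). CEBPD and CEBPB, C/EBP factors of the acute-phase response, had log2 changes of -1.17 and -0.78, and NFKB1, the p50 subunit of NF-kB, -0.63. RELA, its partner p65, averaged 37.3 ± 1.15 FPKM in knockdown and 46.6 ± 0.707 FPKM in control libraries (SD, n = 3 each).

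The promoter of LCN2 is shown because NF-kB is a known regulator of the gene. NF-kB activity was not measured, and its part in the fall of LCN2 was not tested. The RefSeq window (GRCh38.p14) before the transcription start, chr9:128149203-128149452 on the plus strand, holds 1 match to the NF-kB motif, in capitals, whose first base is at position -175 from the start and which reads on the other strand.
LCN2 promoter: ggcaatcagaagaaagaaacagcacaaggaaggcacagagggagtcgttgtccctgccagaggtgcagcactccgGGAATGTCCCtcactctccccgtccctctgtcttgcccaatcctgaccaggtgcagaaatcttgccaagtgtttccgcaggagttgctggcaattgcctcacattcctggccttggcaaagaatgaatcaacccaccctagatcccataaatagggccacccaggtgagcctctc
On both strands and with 50 bases after the start, 11.3% of 35116 RefSeq promoters held this motif. Of the 8 members with a promoter in that table, LCN2 and IREB2 held it. The antioxidant response element core (TGAC, 3 bases, GC) was searched on both strands. It stood in 1 of the 2 NCOA4 promoters and in none of the other members searched, against 13.3% of all promoters. FTH1 and CP had no promoter there, so neither motif was searched for in them.

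The 5 transcripts whose centred log2 profile over the 6 libraries lay closest to that of LCN2 were CFB, SAA4, C3, HLA-B and LEMD1. Closeness was the mean absolute difference over the libraries, from 0.0798 for CFB to 0.15 for LEMD1, among genes reaching 5 FPKM in one group mean. CFB and C3 are complement components, SAA4 is a serum amyloid A protein and HLA-B is an MHC class I heavy chain. C3 stood at 17.5, 15.8 and 15.7 FPKM in knockdown libraries and 130, 123 and 132 FPKM in control libraries. SAA4 and LEMD1 were at or near 0 FPKM in the knockdown libraries and averaged 7.33 and 9.26 FPKM in control libraries. The size of their falls, and so their closeness to LCN2, depends on the pseudocount. Over the alternatives their log2 changes reached -6.18 and -6.49, against -3.18 for LCN2. CFB and HLA-B were summed over 7 and 6 loci, among them alternative haplotypes, and SAA4 could share reads with its paralogs. The NF-kB motif stood in the promoters of CFB and HLA-B, and no such letters were found in the windows of SAA4 and LEMD1. C3 had no window among the RefSeq promoters used and was not searched.

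**Figure D3:**
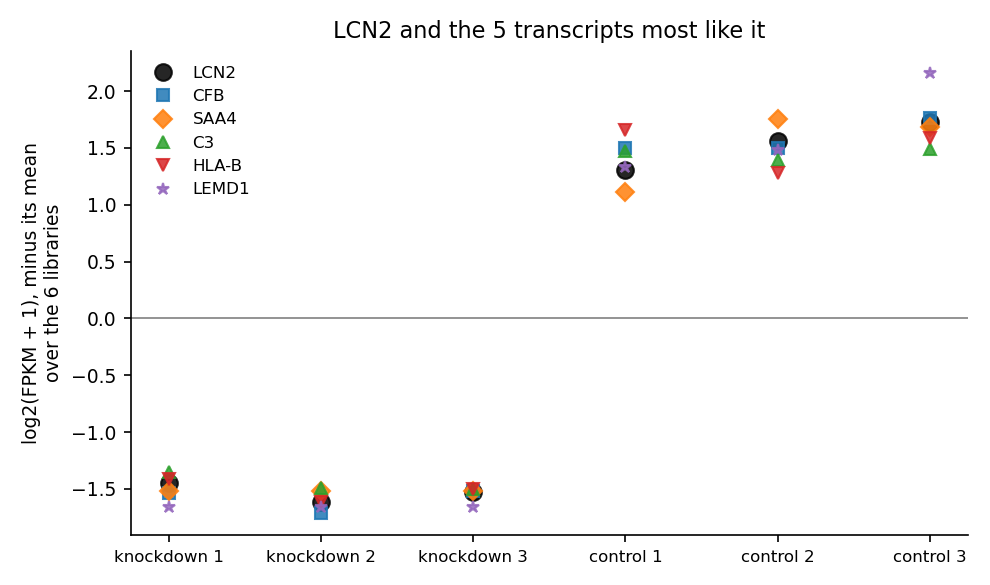
Log2(FPKM + 1) of LCN2 (black) and of the 5 transcripts closest to it, each minus its mean over the 6 libraries, by library. All 6 are below their mean in the 3 knockdown libraries and above it in the 3 control libraries, which follows from choosing the 5 by closeness to LCN2 in these same libraries.

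Neutrophil markers were measured beside LCN2, since neutrophils store its protein. MPO, ELANE and CEACAM8 were listed in no library, and PTPRC averaged 0.194 and 0.227 FPKM in knockdown and control libraries. The 9 markers summed to 1.89 to 2.45 FPKM in knockdown and 5.4 to 6.2 FPKM in control libraries. Of these CD177 averaged 1.51 ± 0.0732 FPKM in knockdown and 1.52 ± 0.222 FPKM in control libraries (SD, n = 3 each). It passed only under some alternatives (limma, adjusted p = 0.989, at lowest 0.0456). Within that sum CAMP, which epithelia also make, fell to 0.51 ± 0.443 FPKM in knockdown libraries, against 3.87 ± 0.397 FPKM in control libraries (SD, n = 3 each; limma, adjusted p = 0.000205). Of 5 macrophage markers 4 were tested and 4 fell, CD68 at 66.0 ± 0.820 FPKM in knockdown and 74.0 ± 4.74 FPKM in control libraries being the most abundant (SD, n = 3 each). The calls of CD14 and CSF1R held in every alternative and those of CD68 and MARCO did not (limma, adjusted p up to 0.327 for CD68 and 0.181 for MARCO). The part of macrophage RNA in these values was not tested.

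On the uptake side, TFRC moved the most among the members (Entrez 7037; chromosome 3, 195776155 to 195809032, hg19), with 139, 137 and 130 FPKM in knockdown libraries, against 54.5, 64.2 and 57.4 FPKM in control libraries. Every knockdown library was above every control library, by more than either group's own range. The mean was 2.3-fold higher, a log2 change of 1.19 (95% interval 1.05 to 1.34; limma, adjusted p = 3.15e-06), and 129 of 13340 genes rose further. STEAP3, the endosomal ferrireductase (Entrez 55240; chromosome 2, 119981384 to 120023227), stood at 18.6, 18.8 and 17.9 FPKM in knockdown and 15.4, 16.4 and 16.5 FPKM in control libraries, a log2 change of 0.18 (limma, adjusted p = 0.019). The STEAP3 call was lost without knockdown replicate 1 (limma, adjusted p = 0.0629) or 2 (0.0683), in a range of 0.00262 to 0.0683 over 15 alternatives.

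HFE, the hemochromatosis protein that binds the transferrin receptor and competes with transferrin, went the other way from TFRC (Entrez 3077; chromosome 6, 26087509 to 26095469). HFE stood at 8.84, 8.83 and 8.25 FPKM in knockdown libraries and 12, 14.1 and 12.6 FPKM in control libraries. The groups did not overlap, and the log2 change was -0.52 (95% interval -0.7 to -0.35; limma, adjusted p = 0.000424).

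The wider uptake list of 16 genes, chosen by role, held 12 tested genes, of which 3 rose and 4 fell, with a median log2 change near 0. SLC11A2, the divalent metal transporter that brings iron out of the endosome, fell. The 3′ UTR hairpin match of an SLC11A2 transcript is shown above beside those of TFRC. FPKM here is per gene and does not tell which transcripts fell. SLC11A2 stood at 21.3, 18.1 and 20.1 FPKM in knockdown libraries and 35.1, 40.6 and 44.1 FPKM in control libraries (log2 change -0.97; limma, adjusted p = 4.41e-05). The STEAP family split. STEAP2 fell by 0.77 on the log2 scale. STEAP1 averaged 6.67 ± 0.910 FPKM in knockdown and 3.05 ± 0.481 FPKM in control libraries, and rose. STEAP4, known as a reductase induced by inflammation, fell to 12.5 ± 0.562 FPKM in knockdown libraries, against 39.9 ± 2.66 FPKM in control libraries (SD, n = 3 each; log2 change -1.59; limma, adjusted p = 1.04e-06). Transferrin itself (TF) was listed at no more than a trace, and SLC39A8, SLC39A14 and MCOLN1 did not pass. TFR2 and CYBRD1 passed only under some alternatives (limma, adjusted p = 0.399, in a range of 0.011 to 0.759 for TFR2, and 0.102, in a range of 0.0248 to 0.39 for CYBRD1).

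Ferritin chains were among the most abundant transcripts of every library. FTH1 (Entrez 2495; chromosome 11, 61731757 to 61735132, hg19) was at 4612, 4662 and 4718 FPKM in knockdown libraries, against 5883, 6039 and 5809 FPKM in control libraries. All 3 knockdown values lay below all 3 control values. The log2 change was -0.34 (95% interval -0.42 to -0.26; limma, adjusted p = 7.92e-05). After quantile normalization it was -0.17 (adjusted p = 0.0489, in a range of 1.98e-05 to 0.0489 over 15 alternatives). FTH1 ranked 3 to 5 among all symbols in each library. Processed pseudogenes resemble both ferritin genes closely, so how reads were shared among copies can affect these values.

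FTL (Entrez 2512; chromosome 19, 49468566 to 49470136) stood at 3991, 3922 and 3930 FPKM in knockdown libraries and 3636, 3804 and 3555 FPKM in control libraries. The groups did not overlap, yet the gap was small beside the level, with a log2 change of 0.11 (95% interval 0.02 to 0.2; limma, adjusted p = 0.0397). The FTL call was lost without control replicate 3 (limma, adjusted p = 0.0926) or knockdown replicate 1 (0.13), 2 (0.098) or 3 (0.102). It was also lost without a filter on low values (0.122) and without limma's trend (0.123), in a range of 0.00029 to 0.13 over 15 alternatives. After quantile normalization the FTL change was 0.39.

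Because both chains come from the same library, their ratio is free of library scaling. FTH1 over FTL was 1.16, 1.19 and 1.2 in knockdown libraries and 1.62, 1.59 and 1.63 in control libraries. Each control ratio exceeded each knockdown ratio. The knockdown ratio was 1.37-fold lower, a difference of -0.45 in log2, with p = 0.1 by exact two-sided permutation, the lowest value open to 3 against 3. The chains together held 1.44%, 1.4% and 1.45% of the FPKM total in knockdown libraries and 1.54%, 1.63% and 1.53% in control libraries. TFRC over the sum of both chains was 0.0161, 0.016 and 0.015 in knockdown libraries and 0.00573, 0.00652 and 0.00613 in control libraries. That ratio was 2.56-fold higher in knockdown libraries (difference 1.36 in log2; exact two-sided permutation p = 0.1). Ferritin and receptor protein were not measured.

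**Figure D4:**
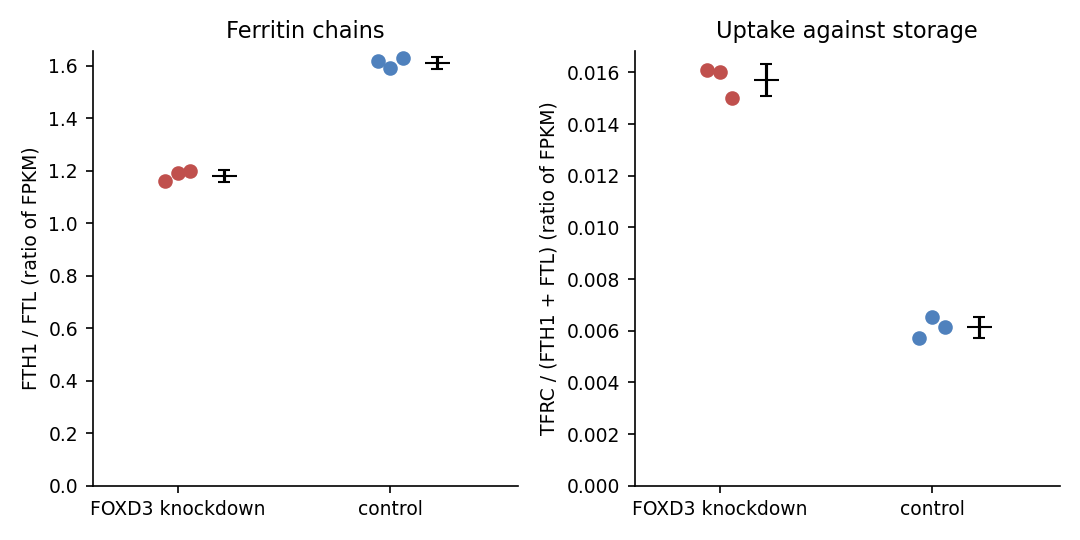
FPKM ratio of the ferritin chains FTH1 to FTL (left) and of TFRC to their sum (right) in each knockdown (red) and control (blue) library, with mean ± SD beside the points (n = 3 each). The FTH1 to FTL ratio is 1.18 ± 0.0233 in knockdown and 1.61 ± 0.0237 in control libraries; the TFRC ratio is 0.0157 ± 0.000609 in knockdown and 0.00613 ± 0.000395 in control libraries.

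NCOA4, the receptor that delivers ferritin for degradation (Entrez 8031; chromosome 10, 51565108 to 51590734, hg19), also fell. Its level was 168, 167 and 171 FPKM in knockdown libraries and 249, 235 and 243 FPKM in control libraries. The gap between the groups was several times the range within either. The log2 change was -0.52 (95% interval -0.61 to -0.43; limma, adjusted p = 1.28e-05). Of the iron chaperones that load ferritin, PCBP1 averaged 172 ± 4.09 FPKM in knockdown and 159 ± 6.51 FPKM in control libraries and PCBP2 averaged 205 ± 4.36 FPKM in knockdown and 199 ± 9.71 FPKM in control libraries (SD, n = 3 each). Neither passed for the values as deposited, but each did under some alternatives (limma, adjusted p = 0.059, in a range of 0.00612 to 0.767 for PCBP1, and 0.473, in a range of 0.0335 to 0.966 for PCBP2). PCBP4, a low-abundance relative, fell to 15.9 ± 0.632 FPKM in knockdown libraries, against 23.0 ± 1.81 FPKM in control libraries (SD, n = 3 each).

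The iron regulatory proteins differed from each other. ACO1, iron regulatory protein 1 and in iron-replete cells the cytosolic aconitase (Entrez 48; chromosome 9, 32384601 to 32450832), stood at 12.5, 12.1 and 11.9 FPKM in knockdown libraries and 18.0, 19.1 and 20.2 FPKM in control libraries. It fell, with groups well apart and a log2 change of -0.61 (95% interval -0.75 to -0.47; limma, adjusted p = 6.69e-05). IREB2, iron regulatory protein 2 (Entrez 3658; chromosome 15, 78730518 to 78793798), stood at 18.5, 17.9 and 19.3 FPKM in knockdown libraries and 15.8, 17.1 and 18.6 FPKM in control libraries. These groups overlapped, and the log2 change of 0.11 (95% interval -0.05 to 0.27) did not pass (limma, adjusted p = 0.196). After median scaling it was 0.2 and passed (adjusted p = 0.0309, in a range of 0.0309 to 0.45 over 15 alternatives).

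FBXL5, the iron-sensing ligase subunit that marks the iron regulatory proteins for degradation, fell. FBXL5 was at 6.52, 5.46 and 6.07 FPKM in knockdown libraries, against 11.5, 12.4 and 12.1 FPKM in control libraries (log2 change -0.89; limma, adjusted p = 2.94e-05). The general subunits of its ligase rose, SKP1 by 0.27, CUL1 by 0.39 and RBX1 by 0.58 on the log2 scale. In the list of 6 genes of this system 3 therefore rose and 2 fell.

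Genes of iron export differed widely in level. CP, ceruloplasmin, a ferroxidase that helps iron leave cells (Entrez 1356; chromosome 3, 148890290 to 148939832), stood at 0.541, 0.738 and 0.607 FPKM in knockdown libraries and 0.942, 0.653 and 0.977 FPKM in control libraries. The groups overlapped and the log2 change of -0.19 (95% interval -0.46 to 0.09) did not pass (limma, adjusted p = 0.208), so a difference in CP was not detectable at this level. The exporter ferroportin (SLC40A1), whose 5′ UTR also held a hairpin match, averaged 12.6 ± 1.08 FPKM in knockdown and 10.5 ± 1.34 FPKM in control libraries (SD, n = 3 each), and did not pass (limma, adjusted p = 0.0652, in a range of 0.0167 to 0.19 over alternatives). Of the 14 genes of export and its hormone axis 10 were tested, 1 rose and 6 fell. BMP6, the ligand that induces hepcidin in liver, rose to 2.06 ± 0.350 FPKM in knockdown libraries, against 0.887 ± 0.117 FPKM in control libraries (SD, n = 3 each; log2 change 0.69, or 1.13 with a pseudocount of 0.1). BMP2, a related ligand, and NEO1, a receptor that binds hemojuvelin, fell by 0.67 and 0.66 on the log2 scale. After quantile normalization the changes were -0.35 for BMP2 and -0.36 for NEO1, and BMP2 was at -1.45 with a pseudocount of 0.1. TMPRSS6, a protease that restrains that pathway, fell to 2.16 ± 0.355 FPKM in knockdown libraries, against 5.00 ± 0.828 FPKM in control libraries (SD, n = 3 each).

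By FPKM, which is per transcript length, the order of the members in knockdown libraries was FTH1, FTL, LCN2, NCOA4, TFRC, IREB2, STEAP3, ACO1, HFE and CP. IREB2 and STEAP3 overlapped there. In control libraries it was FTH1, FTL, LCN2, NCOA4, TFRC, ACO1, IREB2, STEAP3, HFE and CP, where ACO1 overlapped with IREB2 and IREB2 with STEAP3. Spread within a group was smaller among knockdown libraries for all 10 members. The coefficient of variation ran from 0.955% for FTL to 15.9% for CP in knockdown libraries, and from 1.99% for FTH1 to 20.7% for CP in control libraries.

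The users of iron were mixed, beside 25.6% of all genes tested that rose and 37.9% that fell. In heme synthesis 1 gene rose and 6 fell of 11 tested, and 3 of the 6 fell in every alternative. ALAS1, the rate-limiting enzyme of heme synthesis outside red cells, fell to 27.7 ± 0.526 FPKM in knockdown libraries, against 48.1 ± 1.68 FPKM in control libraries (SD, n = 3 each; log2 change -0.77; limma, adjusted p = 5.71e-06). PPOX, which makes protoporphyrin, fell by 1.23 on the log2 scale. ABCB6, a porphyrin transporter, rose to 33 ± 1.05 FPKM in knockdown libraries, against 15.2 ± 1.94 FPKM in control libraries. In heme breakdown and transport 5 rose and 3 fell of 12 tested. HMOX1, the inducible heme oxygenase, rose to 16.3 ± 1.16 FPKM in knockdown libraries, against 9.62 ± 1.62 FPKM in control libraries. BACH1, its heme-sensing repressor, fell to 6.63 ± 0.488 FPKM in knockdown libraries, against 14.9 ± 2.09 FPKM in control libraries (SD, n = 3 each). LRP1, a receptor for heme bound to hemopexin, and BLVRA, a biliverdin reductase, fell by 1.24 and 0.68 on the log2 scale.

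Of 20 genes of mitochondrial iron and iron-sulfur assembly 7 rose and 4 fell, and of 11 in the cytosolic assembly pathway 6 rose and 2 fell. Over all genes tested 25.6% rose and 37.9% fell. In every alternative 6 rose and 2 fell of the mitochondrial list, and 4 rose and 1 fell of the cytosolic list. SLC25A37 (mitoferrin-1), which imports iron into mitochondria, fell the furthest of the mitochondrial list, to 11.3 ± 0.776 FPKM in knockdown libraries, against 26.0 ± 1.35 FPKM in control libraries (log2 change -1.13; limma, adjusted p = 5.1e-06). GLRX5, ISCA1 and BOLA3, which act late in assembly, rose by 0.75, 0.73 and 0.72 on the log2 scale. ISCA2 and NFU1, also late-acting, had log2 changes of -0.12 and 0.01 and did not pass (limma, adjusted p = 0.0695, in a range of 0.00983 to 0.656 for ISCA2, and 0.929 for NFU1). In the cytosolic pathway CIAPIN1 and NUBP1, which act early, rose by 0.45 and 0.43, and MMS19, which hands clusters to DNA enzymes, fell by 0.47. NFS1 and LYRM4 of the core mitochondrial assembly complex and its co-chaperone HSCB did not pass. ISCU of that complex fell by 0.17 on the log2 scale (limma, adjusted p = 0.0174, in a range of 0.0031 to 0.209). The chaperone HSPA9 rose by 0.17 (limma, adjusted p = 0.0113, in a range of 0.00104 to 0.444). Both calls were therefore lost under some alternatives.

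**Figure D5:**
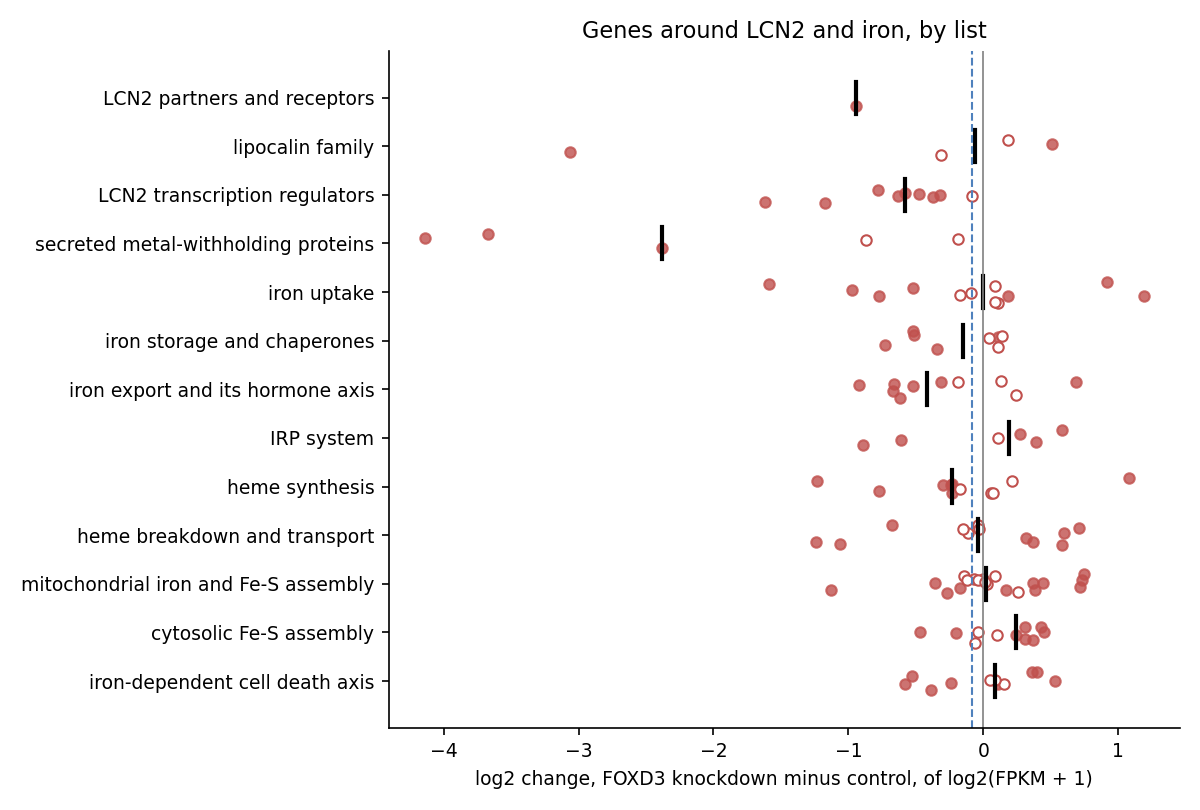
Log2 change (knockdown minus control, of log2(FPKM + 1)) of each tested gene in 13 lists around LCN2 and iron, 1 point per gene, filled where adjusted p was under 0.05; black bars are list medians and the dashed line is the median of all genes tested. Medians run from -2.38 for secreted metal-withholding proteins to 0.24 for cytosolic Fe-S assembly.

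The authors' deposited table, with 1 FPKM per group, holds 9 of the 10 members and not CP. In the authors' deposited table LCN2 has a log2 fold change of -2.94 and TFRC 1.29, each with a false discovery rate of 0.000722. For ACO1 the authors' deposited table gives -0.548 with a false discovery rate of 0.073, for FTH1 -0.235 with 0.665 and for FTL 0.242 with 0.587. NCOA4, HFE, STEAP3 and IREB2 have false discovery rates of 0.171 to 0.58 in the authors' deposited table. So LCN2 and TFRC passed 0.05 in both, and the other 6 members called here by limma did not pass in the authors' comparison.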

How the data were processed

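RNA-seq was run on 6 libraries of cells labelled A549. The authors deposited FPKM per gene and library, per the file headers; per the submitters' processing notes the tools include TopHat2 2.0.12, Bowtie, Cufflinks 2.0.2 and Cuffdiff and the build hg19, without their roles. Strand setting and annotation were not stated in those sources. The authors' table of group values lists, per the file headers, each gene's log2 fold change (knockdown over control), p-value and false discovery rate. Loci are hg19, written 1-based. FPKM was summed over the rows of a symbol (331 of 17789 symbols have several) and set to 0 where not listed. The deposited values hold no counts. Candidates for the depth estimate were 77 single-exon genes of at least 2500 bp. Only estimates between 5000000 and 12000000 fragments were kept, from 4 to 8 genes per library, and their median was taken. The result could therefore not fall outside that window.

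Genes averaging 0.5 FPKM or more were tested on log2(FPKM + 1) with limma 3.58.1 in R 4.3.3 (eBayes with trend, two-sided, Benjamini-Hochberg over all genes), checked on simulated data. Ratios and FOXD3 were tested by exact permutation. Members and lists were chosen with earlier results of these data known. Named genes are the members, FOXD3, up to 4 called, non-overlapping genes of largest change per list, the 5 profiles closest to LCN2, and markers of at least 5 FPKM; others (such as SLC40A1, PCBP1, APOM, CAMP and NFS1) were added after their values were seen to complete a pathway. The transcript search for hairpins was also added then, and planned protein sequences were not used here. Alternatives covered pseudocount, filter, scaling, locus choice, trend and each library left out.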

Additional observations from a re-analysis of the deposited data

How the results depend on the processing

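The 5 members that fell (LCN2, FTH1, ACO1, NCOA4, HFE) passed in all 15 alternatives, and TFRC rose in all 15, at 1.09 to 1.28. LCN2 ran from -3.18 to -2.97. With each library left out in turn, members called higher ran from 1 to 3; the FTL change ran from 0.09 to 0.13 and the STEAP3 change from 0.15 to 0.21. FTL stayed at 0.11 but was not called without a filter or without limma's trend, IREB2 was called at 0.2 after median scaling, and CP, not called, turned to 0.13 after quantile normalization (limma, adjusted p = 0.396, in a range of 0.0981 to 0.415); the causes were not tested. Genes called lower numbered 3295 with a filter of 5 FPKM, where fewer genes are tested, against 5050. The share of calls that were higher was 40.4% (3417 higher, 5050 lower) as deposited and 52.4% (4304 higher, 3909 lower) after quantile normalization, which moved the median of all genes by over 0.1, to 0.025. The FTL and IREB2 changes are no larger than that shift. Of 47 other results on named genes, 44 kept direction and call in all their alternatives. The FTH1 to FTL difference ran from -0.56 to -0.43 and the TFRC to ferritin difference from 1.04 to 1.4 over 8 alternatives. No paired analysis was possible because the labels number no replicates. The numbers used here follow the order of accession, only name the libraries and pair none of them. Depth is known by rough estimate only.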

Other observations

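Genes that govern iron-dependent lipid peroxidation were mixed, with 4 higher and 4 lower of 11 tested. Over all genes tested 25.6% were higher and 37.9% lower. AIFM2 (FSP1), which protects membranes by reducing ubiquinone, rose to 34.9 ± 0.522 FPKM in knockdown libraries, against 23.9 ± 0.430 FPKM in control libraries (SD, n = 3 each; limma, adjusted p = 2.92e-05). ACSL4, which builds the polyunsaturated lipids that peroxidize, fell to 25.7 ± 1.03 FPKM in knockdown libraries, against 39.1 ± 4.82 FPKM in control libraries (limma, adjusted p = 0.000585). ALOX15, a lipoxygenase, fell to 5.64 ± 0.266 FPKM in knockdown libraries, against 8.58 ± 0.482 FPKM in control libraries (limma, adjusted p = 0.000354). GPX4, the lipid hydroperoxide reductase, averaged 367 ± 4.75 FPKM in knockdown and 341 ± 0.592 FPKM in control libraries, a log2 change of 0.11 (limma, adjusted p = 0.0209) whose adjusted p reached 0.937 among the alternatives. SLC7A11, the cystine importer, averaged 56.6 ± 1.82 FPKM in knockdown and 43.5 ± 10.2 FPKM in control libraries (limma, adjusted p = 0.0439), a log2 change of 0.40 that was 0.21 without control replicate 1. That call was lost without control replicate 3, without any 1 of the knockdown replicates, after quantile normalization, without a filter and without limma's trend (limma, adjusted p 0.00833 to 0.105 over 15 alternatives). Red cell markers were at or near 0: HBB and ALAS2 were listed in no library, and the 7 markers summed to at most 0.744 FPKM in a knockdown library and 0.743 FPKM in a control library. ALB, TTR and FGB, markers of liver cells, were listed in no library.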
